A study of Mus musculus with 1 sample.

Results

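Low ribosomal CD4 T barcodes were droplets whose RNA carried Cd4 and CD3 transcripts but hardly any mRNA of the ribosomal proteins. They were selected on values of the gene expression matrix alone. A barcode had at least 1331 UMIs (molecular tags that each mark 1 captured RNA molecule), spent under 10% of them on ribosomal protein genes, carried at least 1 UMI of Cd3d, Cd3e or Cd3g and at least 1 of Cd4, and had none of Cd8a, Cd8b1, Cd79a or Pf4. Of 1600 barcodes that passed the UMI limit, 617 were under 10%, 446 of these had a CD3 UMI, 136 of those had a Cd4 UMI, 123 were left without Cd8a or Cd8b1, and 113 were left after 10 barcodes with a Pf4 UMI were dropped. The 113 were thus chosen by values of the same matrix that is described here, and all comparisons of that matrix with other barcodes are descriptions. The selection did not use ribosomal RNA itself, so that the name refers to the mRNAs of ribosomal proteins. Levels of non-coding genes that overlap ribosomal RNA sequence are given below.

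The library came from 1 vehicle-treated mouse of a small cell lung cancer (SCLC) model on a C57BL/6 background, in which both alleles of Rb1 and Trp53 are deleted by Cre recombinase from an adenovirus given into the trachea. The mouse received phosphate-buffered saline every 3 days, the schedule used for the treated animals, and its age at sampling is not given in the sources used here. T cells were isolated from 150 µl of blood after red cell lysis by removal of other cells, so that the cells studied are circulating T cells and not cells of the tumor, and the promoter that drives Cre is not given in the sources used here. Gene expression and T cell receptor (TCR) libraries were made from the same droplets. With 1 library there was no replicate check and no test, and intervals in brackets are exact 95% Poisson intervals for rates, exact conditional intervals for ratios of rates, or exact 95% binomial intervals for shares, all of which cover counting error only. Where nothing was counted, "allows up to" gives the value of 3 counts over the same total.

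Ribosomal protein mRNAs belong to the most abundant mRNAs of a resting lymphocyte and reside in the cytoplasm, where they are translated. Malat1, a long non-coding RNA, and unspliced transcripts are retained in the nucleus, and transcripts of the mitochondrial genome stay inside mitochondria. CD4 T cells recognize peptides on MHC class II through a receptor of an α and a β chain, whose CDR3 is joined from gene segments in each cell and thus marks a clone.

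The ribosomal protein shares of CD4 T barcodes fell into a narrow low range and a broad high range. Of 318 CD4 T barcodes, 113 were under 10% (35.5%, 30.3% to 41.1%), against 150 of 609 CD8 T barcodes (24.6%, 21.3% to 28.3%) and 21 of 83 B cell barcodes (25.3%, 16.4% to 36%). The other 205 CD4 T barcodes, which met every other condition, are called ordinary here. The ribosomal protein share of single members ran from 0.928% over a median of 2.67% to 9.85%, and that of ordinary CD4 T barcodes from 10.4% over 22.8% to 44.6%. Few barcodes lay near the limit: the nearest inside had 8.82%, 9.50%, 9.59%, 9.78% and 9.85%, and the nearest outside had 10.4%, 10.6%, 11.3%, 11.6% and 11.8%.

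**Figure D1:**
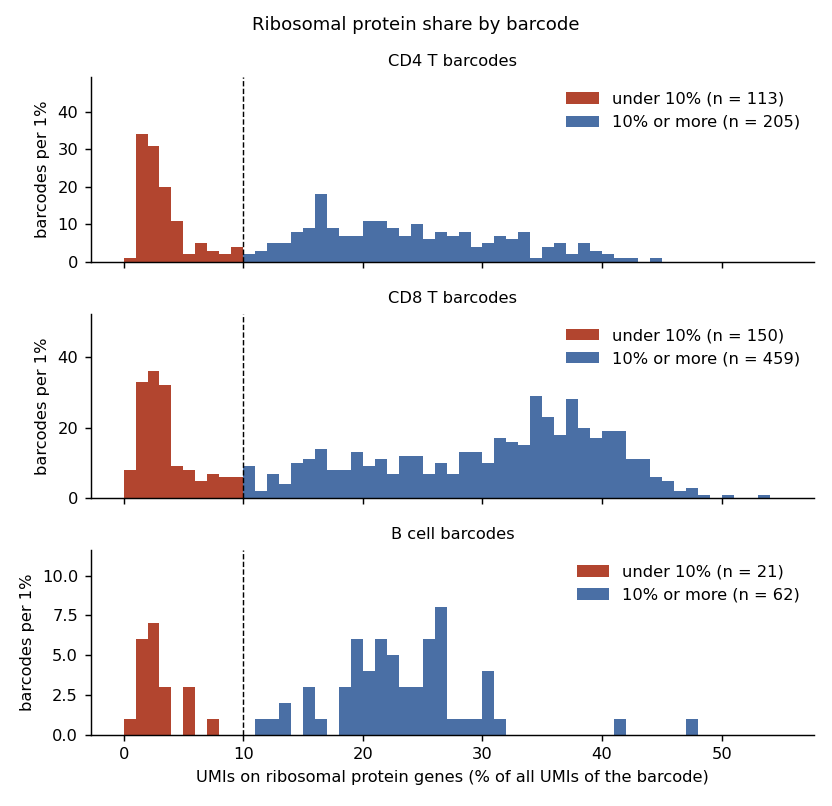
Number of barcodes (y axis, per 1% bin) by the share of their UMIs on ribosomal protein genes (x axis, %) for CD4 T, CD8 T and B cell barcodes, with the 10% limit as a dashed line. In each type a narrow group near 3% stands beside a broad group above 10%, and the CD4 panel holds 113 barcodes below and 205 above the limit.

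Members were shallower than ordinary CD4 T barcodes. They had 1357 to 5312 UMIs with a median of 2746, against 1487 to 14103 with a median of 4163, and 6 of 113 members exceeded the ordinary median. Together they held 313455 UMIs, 303312 of them outside ribosomal protein genes, against 952379 and 712963. When every barcode was thinned to 1331 UMIs, members showed a median of 902 genes and ordinary barcodes 789. What part the few ribosomal protein UMIs of the members had in this gene number was not tested.

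The CD4 T identity was checked against markers. All 17 genes of a T cell list (CD3 chains, TCR constant genes, proximal kinases and others) had UMIs in the members, with a summed level of 114 per 10000 UMIs outside ribosomal protein genes (111 to 118) against 116 in ordinary CD4 T barcodes (113 to 118) and 51.5 in free RNA, taken from 20532 barcodes with 10 to 50 UMIs. This is a weak check, since a UMI of Cd3d, Cd3e or Cd3g was required in both groups and Skap1 alone gave 1021 of the members' 3469 UMIs. Cd4, which encodes the MHC class II coreceptor, was required by the selection, and 48 members had 1 Cd4 UMI, 38 had 2, 14 had 3 and 13 had 4 or more. CD3 support was thinner than in ordinary barcodes, with 21 members at 1 CD3 UMI and 45 at 4 or more, against 1 and 199 of the 205. Cd40lg, the CD40 ligand of helper T cells and no part of the selection, had 46 UMIs in 32 members (1.52 per 10000), 133 UMIs in 85 ordinary CD4 T barcodes (1.87) and 0 UMIs in 150 low ribosomal CD8 T barcodes, which allows up to 0.0569 per 10000. Cd40lg thus followed the CD4 label on both sides of the ribosomal limit.

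RNA of other cell types was sparse. B cell genes gave 31 UMIs over all members, 23 of them Ighm, with 6 of 14 genes seen and Cd79a, Cd79b, Ms4a1, Igkc, Ebf1, Pax5 and Bank1 among those at 0. Their summed level of 1.02 per 10000 was below the 12.1 per 10000 in free RNA. Monocyte genes gave 80 UMIs (6 of 10 genes), 46 of them Ctss, with Lyz2, Csf1r and Cd68 among those at 0. Platelet genes gave 12 UMIs (6 of 8 genes, Gp9 with 4), erythroid genes 7 (4 of 9 genes), basophil genes 2, and NK cell, neutrophil and SCLC tumor genes 1 UMI each. A gene at 0 in the members allows up to 0.0989 per 10000. Scrublet predicted no member as a doublet, but it marked 10 of 1600 barcodes in all (0.625%). Cd79a and Pf4 at 0 follow from the selection. The Cd79a condition removed no barcode of the 123 left at that step, while the Pf4 condition left 113 of them. Counts of the other platelet genes were thus not free of the selection. The remaining genes of these lists were not named in it.

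The TCR library was not used by the selection, but it was made from the same droplets and is not independent of their RNA content. Of 113 members, 92 had any TCR contig (81.4%, 73.0% to 88.1%) and 78 a productive one (69.0%, 59.6% to 77.4%), whereas all 205 ordinary CD4 T barcodes had a contig and 204 a productive one. A clonotype, which the authors' pipeline gives only to barcodes it calls cells, was present in 43 members (38.1%, 29.1% to 47.7%) and in 195 ordinary CD4 T barcodes (95.1%, 91.2% to 97.6%). Low ribosomal CD8 T barcodes had one in 41 of 150 (27.3%) and ordinary CD8 T barcodes in 425 of 459 (92.6%). As background, B cell barcodes had a clonotype in 0 of 21 on the low side, which allows up to 14.3% (exact upper bound 16.1%), and in 0 of 62 on the ordinary side, which allows up to 4.84% (exact upper bound 5.78%), with 1 contig-bearing barcode on each side. Of the 70 members without a clonotype, 49 still carried a TCR contig.

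The difference was also present in bands of UMI totals. Among barcodes of 2000 to under 3000 UMIs, 18 of 56 members and 36 of 37 ordinary CD4 T barcodes had a clonotype. From 3000 to under 4000 UMIs these were 17 of 34 and 41 of 44, from 4000 UMIs 3 of 6 and 109 of 111, and under 2000 UMIs 5 of 17 and 9 of 13. Below 2000 UMIs the intervals overlapped. Bands of TCR constant gene UMIs in the gene expression matrix gave the same order, with 11 of 42 members and 21 of 23 ordinary barcodes at 0 UMIs. At 1 UMI these were 15 of 39 and 27 of 30, and at 2 or more 17 of 32 and 147 of 152. The highest band of each set had no upper limit, so that both groups were not matched in it. Each set of bands sorted barcodes by that value alone. The intervals of both groups stood apart in every band with more than 20 barcodes on both sides.

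The clonotype share also went with the ribosomal protein share inside the group. It was 7 of 35 members under 2% (20%, 8.44% to 36.9%), 19 of 51 from 2% to under 4% (37.3%, 24.1% to 51.9%) and 17 of 27 from 4% to under 10% (63.0%, 42.4% to 80.6%). Just above the limit, from 10% to under 15%, 22 of 23 ordinary barcodes had one (95.7%, 78.1% to 99.9%), and the bands above stayed between 94% and 96.3%. Clonotyped members had a median ribosomal protein share of 3.34% and the other 70 members one of 2.19%, while their median UMI totals were 2778 and 2668. Camk4 stood at 16 per 10000 in clonotyped members (13.8 to 18.4) and at 13.2 in the others (11.6 to 15), and Malat1 at 314 and 327. The genes that marked the group were thus present with and without a clonotype.

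**Figure D2:**
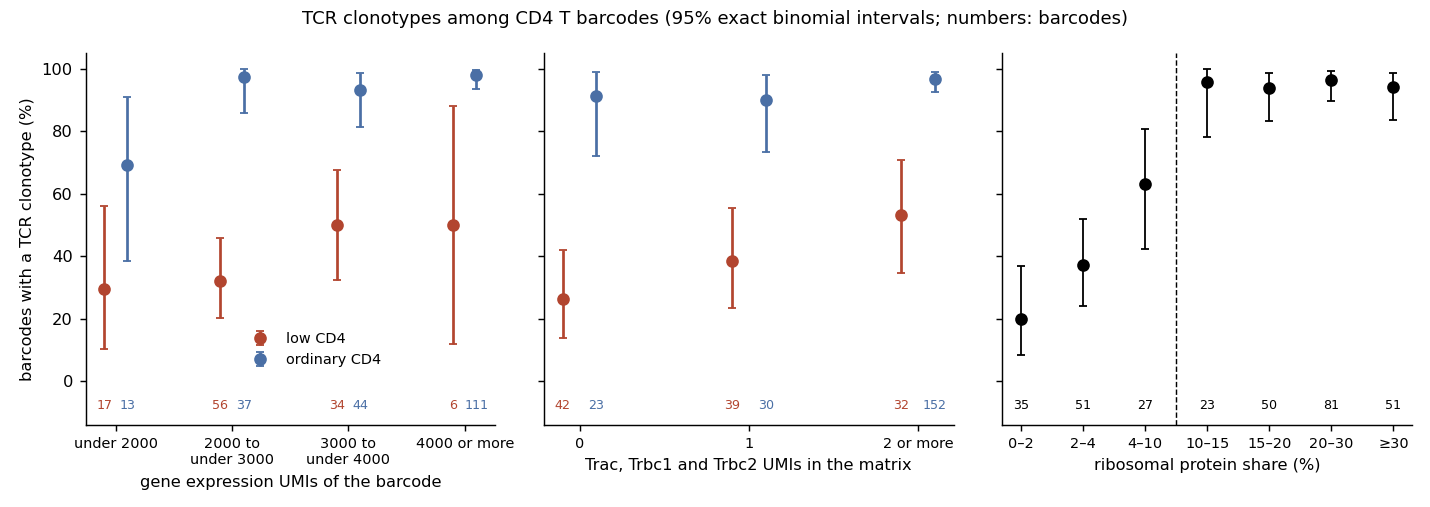
Share of barcodes with a TCR clonotype (y axis, %) for low ribosomal and ordinary CD4 T barcodes by gene expression UMIs, by Trac, Trbc1 and Trbc2 UMIs in the matrix, and for all CD4 T barcodes by ribosomal protein share (%), with exact 95% binomial intervals and the number of barcodes below each point. The dashed line marks the 10% limit: the 3 bands below it lie at 20%, 37.3% and 63.0% and the 4 bands above it between 94% and 96.3%.

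TCR molecules were fewer in members that did have a clonotype. They carried a median of 5 TCR UMIs (2 to 18) over productive, high-confidence contigs, against 13 (2 to 66) in ordinary CD4 T barcodes, and the ranges overlapped. The β chain had a median of 5 UMIs in 39 members and 9 in 188 ordinary barcodes, and the α chain 2.5 in 32 and 4 in 172. Reads per TCR UMI were 2548 and 2097, no fewer per molecule in the members. A pair of α and β chains was assembled in 28 of 43 members (65.1%, 49.1% to 79%) and in 165 of 195 ordinary barcodes (84.6%, 78.8% to 89.4%). Another 11 members had a β chain alone and 4 an α chain alone. More than 1 productive β chain, as a droplet with more than 1 T cell could show, was found in 3 of 113 members and 4 of 205 ordinary barcodes.

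The V gene of the β contig could be compared with Trbv UMIs of the gene expression matrix. Among members with both, the contig's gene was among the Trbv genes seen in 54 of 64 (84.4%, 73.1% to 92.2%), and among ordinary CD4 T barcodes in 166 of 193 (86.0%, 80.3% to 90.6%). Members used 17 TRBV genes, with TRBV16 in 9 and TRBV1 in 8 of 64, and ordinary CD4 T barcodes 20, with TRBV16 in 7 and TRBV1 in 10 of 195. The contigs of both groups were thus matched by their own barcode's mRNA to a similar extent.

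The 43 clonotyped members had 43 different clonotypes, 41 of which were seen in 1 barcode of the library, as were those of 188 of 195 clonotyped ordinary CD4 T barcodes, while 2 were shared with barcodes above the 10% limit. The CDR3 nucleotide sequences of these 2 clonotypes, clonotype19 and clonotype6, are shown because a low ribosomal barcode and an ordinary one carry the same clonotype call. In both members the α chain rests on 1 UMI. The sequences are read 5′ to 3′ from the contig table. Capitals mark the bases after the start that both clonotypes share in that chain, which is 12 bases in the β chain and 6 in the α chain.

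clonotype19 TRB, TRBV10 and TRBJ1-3: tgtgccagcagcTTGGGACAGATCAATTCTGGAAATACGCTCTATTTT
clonotype6 TRB, TRBV10 and TRBJ2-1: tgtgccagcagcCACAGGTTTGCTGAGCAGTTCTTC
clonotype19 TRA, TRAV13D-1 and TRAJ38: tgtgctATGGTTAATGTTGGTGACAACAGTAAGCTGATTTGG
clonotype6 TRA, TRAV9N-4 and TRAJ13: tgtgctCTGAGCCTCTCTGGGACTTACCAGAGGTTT

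The β chain locus lies on mouse chromosome 6 and the α chain locus on chromosome 14. In clonotype19 both chains were identical between a member of 3857 UMIs with a ribosomal protein share of 3.24% and an ordinary CD4 T barcode of 5155 UMIs with 17.2%. The β chain had 4 UMIs in the member and 6 in the ordinary barcode, and the α chain 1 and 4. Clonotype6 was carried by a member of 2403 UMIs with 2.21%, an ordinary CD4 T barcode of 6953 UMIs with 13.1%, and a barcode of 8069 UMIs with 19.1% that had 21 CD3 UMIs but none of Cd4 or Cd8. Its β chain had 4, 9 and 16 UMIs in these 3 barcodes, and the α chain was seen in the member and in the third. A member and an ordinary barcode of a shared clonotype thus differed in ribosomal protein share by more than 10 percentage points with the same β chain. Both use TRBV10, and sharing was not tested against chance.

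Malat1 (chr19:5795690-5802672 on GRCm38) was 1 of 4 markers given for the group and is a nuclear RNA. Single members ran from 119 over a median of 324 to 667 Malat1 UMIs per 10000 outside ribosomal protein genes, and ordinary CD4 T barcodes from 7.50 over 182 to 577. Of 113 members, 104 exceeded the ordinary median and 4 the ordinary maximum, so that the groups overlapped. The pooled rate was 322 (316 to 329) against 158 (155 to 161), a ratio of 2.04 (1.99 to 2.10). Depth went with this level: within 2000 to 4000 UMIs the pooled rates were 320 and 236. Low ribosomal CD8 T barcodes stood at 217 (213 to 221) and low ribosomal B cell barcodes at 223, against 90.4 and 95.6 in the ordinary barcodes of each type.

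Camk4 encodes calcium/calmodulin-dependent protein kinase IV, a mostly nuclear kinase that acts on CREB in T cells. It had 435 UMIs in 99 of 113 members (14.3 per 10000, 13.0 to 15.8) and 233 UMIs in 125 of 205 ordinary CD4 T barcodes (3.27, 2.86 to 3.72), a ratio of 4.39 (3.73 to 5.17). After thinning to 1331 UMIs a Camk4 UMI was left in 73.5% of members and 25.9% of ordinary barcodes. Thinning matched the total alone, since ribosomal protein genes took 3.24% of the pooled UMIs of members and 25.1% of those of ordinary barcodes. Low ribosomal CD8 T barcodes stood at 5.75 per 10000 and 44%, ordinary CD8 T barcodes at 1.62 and 13.5%, and no B cell barcode of either side had a UMI. Camk4 was thus higher on the low side of both T cell types, and at a higher level in CD4.

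St8sia6 (chr2:13651018-13794734) encodes a sialyltransferase that adds α2,8-linked sialic acid. It had 205 UMIs in 70 of 113 members (6.76 per 10000, 5.87 to 7.75) and 134 in 78 of 205 ordinary CD4 T barcodes (1.88, 1.57 to 2.23), a ratio of 3.60 (2.88 to 4.50). In contrast, 150 low ribosomal CD8 T barcodes held 3 St8sia6 UMIs together. After thinning to 1331 UMIs, 50.4% of members, 16.1% of ordinary CD4 T barcodes, 0.667% of low ribosomal CD8 T barcodes and 4.84% of ordinary B cell barcodes had a UMI. St8sia6 was thus higher in CD4 than in CD8 T barcodes on both sides of the limit, with 0.0597 per 10000 in ordinary CD8 T barcodes. Cd4 itself (chr6:124864693-124888247), which was required in both groups, stood at 7.55 and 6.26 per 10000, a ratio of 1.21 (1.02 to 1.42).

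**Figure D3:**
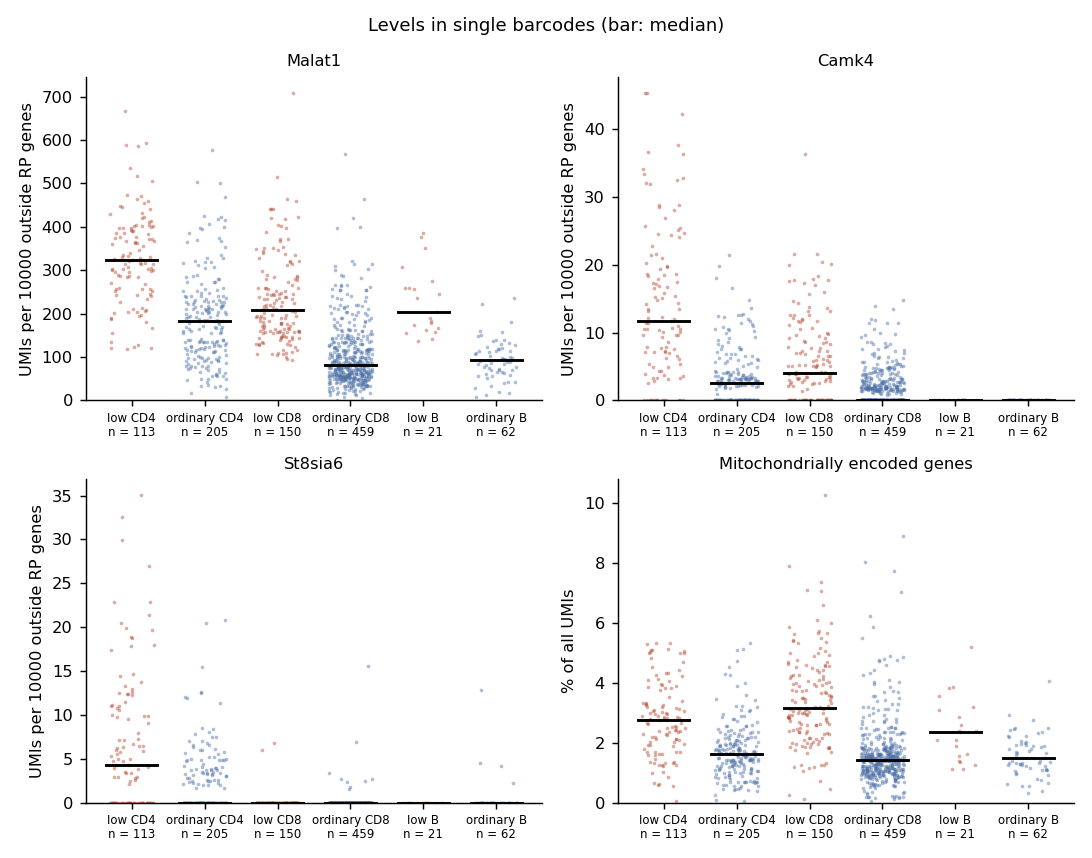
Levels in single barcodes (points) of low ribosomal and ordinary CD4 T, CD8 T and B cell barcodes, as UMIs per 10000 outside ribosomal protein genes for Malat1, Camk4 and St8sia6 and as % of all UMIs for mitochondrially encoded genes, with the median as a bar. Malat1 is highest in low ribosomal CD4 T barcodes with a median of 324, and St8sia6 lies near 0 in CD8 T and B cell barcodes.

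The mitochondrial share was also higher in members. It ran from 0.0438% over a median of 2.75% to 5.34% of all UMIs, and in ordinary CD4 T barcodes from 0.0425% over 1.61% to 5.33%. Of 113 members, 92 exceeded the ordinary median and 1 the ordinary maximum. Depth went with this share too: within 2000 to 4000 UMIs the pooled shares were 2.72% and 2.09%, against 2.76% and 1.57% over all barcodes. No CD4 T barcode of either group exceeded 10%. All 13 mitochondrially encoded protein genes passed the filter on low values and none was 2-fold apart, with a summed level of 285 per 10000 outside ribosomal protein genes against 209. In contrast, the nuclear genes for subunits of the same respiratory chain were nearly all lower: of 85 genes, 72 passed the filter, 66 were at least 2-fold lower and 1 was at least 2-fold higher, with a median log2 ratio of -2.37. Over all 4178 genes past this filter, a mean rate of at least 0.5 per 10000, 19.6% were at least 2-fold lower and 26% at least 2-fold higher, with a median of 0.31. Per 10000 of all UMIs, 69 of the 85 genes passed and 62 were at least 2-fold lower, against 13.4% of all genes.

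Within the 113 members these measures were only loosely related. Across barcodes of this 1 library, Spearman's rho was 0.31 between ribosomal protein share and mitochondrial share, 0.01 between ribosomal protein share and Malat1, and -0.25 between UMI total and Malat1. Among the 205 ordinary barcodes the last was -0.69. Both shares have the barcode's UMI total as denominator and Malat1 its UMIs outside ribosomal protein genes, so that the points share depth.

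Pooled rates per 10000 UMIs outside ribosomal protein genes were then compared gene by gene between members and ordinary CD4 T barcodes, for 4178 genes with a mean rate of at least 0.5 outside TCR, immunoglobulin and ribosomal protein genes. The selection used this contrast, and the counts are a description. At least 2-fold higher were 1085 genes (26%) and at least 2-fold lower 820 (19.6%), and the median log2 ratio of all genes was 0.31. With all UMIs as the scale, the counts were 1539 higher and 502 lower of 3738 and the median was 0.76, and after centring on the median they were 646 and 1052, so that the higher genes made up 57.0%, 75.4% or 38% of the genes 2-fold apart. The counts below are of ratios that were not centred, and each list's share of them stands beside 26% higher and 19.6% lower over all genes and its median beside 0.31. List counts with all UMIs as the scale stand beside 41.2% higher and 13.4% lower over all genes.

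Low ribosomal CD8 T barcodes, which are other droplets of the library, differed from ordinary CD8 T barcodes in the same direction at most of these genes. There 1344 genes (32%) were at least 2-fold higher and 825 (19.7%) at least 2-fold lower of 4196. The median log2 ratio of all these genes was 0.46, so that most of them had a ratio above 1. Of 968 genes 2-fold higher in the members and also past the filter in CD8, all 968 had a ratio above 1 there and 843 were 2-fold higher. Of 775 that were 2-fold lower, 768 had a ratio below 1 and 653 were 2-fold lower. Across 3783 genes Spearman's rho between both sets of ratios was 0.93, and with the B cell ratios it was 0.82 over 3260 genes. Genes are not independent replicates, and all groups share 1 library.

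The 12 genes with the highest ratios were Anks1, Gm4258, Scfd2, Maml2, Ext1, Ift80, Fam126a, Gm49797, 8030462N17Rik, Trps1, Lemd3 and Fgf13. Among them Maml2, a coactivator of Notch target genes, had 564 UMIs in 101 members and 200 in 107 ordinary CD4 T barcodes, with 18.6 and 2.81 per 10000 and a ratio of 6.63 (5.63 to 7.83). Ext1, which encodes a heparan sulfate polymerase subunit, had 194 and 70 UMIs and a ratio of 6.51 (4.93 to 8.69). Anks1 had the highest ratio of 10.7 on only 32 and 7 UMIs (4.66 to 28.8). The interval stayed above a ratio of 3 for 11 of the 12, and that of Fam126a, on 27 and 10 UMIs, began at 2.98. The 12 were ranked by these same ratios, so that their intervals are no separate check of them.

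The 12 lowest were S100a13, Magoh, Slc25a4, Ccl5, Romo1, Ccnb1ip1, Mif, Lgals1, Atp5e, S100a11, Atp5md and Tomm7. Ccl5, a chemokine of memory and effector T cells, had 16 UMIs in 5 members and 964 in 23 ordinary CD4 T barcodes, 25.6-fold lower (15.7 to 45). Lgals1, which encodes galectin-1, had 12 UMIs in 6 members and 505 in 70 ordinary barcodes, 17.9-fold lower (10.2 to 34.9). Atp5e, a small subunit of ATP synthase, had 14 and 573 UMIs and was 17.4-fold lower (10.3 to 32.1). S100a13, with 2 and 170 UMIs, was 36.2-fold lower with a wide interval of 9.86 to 301.

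Cytoplasmic mRNAs outside the selection were low as a group. The 4 listed genes for ribosomal proteins or their fusions that the symbol pattern does not cover, among them Rpsa, Fau and Rack1, were all at least 2-fold lower, with a median log2 ratio of -3.30. Rpsa had 239 UMIs in 85 of 113 members and 4741 in all 205 ordinary barcodes, 7.88 and 66.5 per 10000. Of 16 translation factors and related genes whose mRNAs carry a terminal oligopyrimidine start, 15 were at least 2-fold lower and none higher (median -2.19). Tpt1, the translationally controlled tumor protein, was 10.4-fold lower (9.07 to 12). All 20 abundant cytoplasmic mRNAs of the list were at least 2-fold lower (median -2.35), from H2-K1, an MHC class I heavy chain, at 2.07-fold (1.91 to 2.25) to Tmsb4x, thymosin β4, at 9.84-fold (8.71 to 11.2). With all UMIs as the scale, 17 of these 20 and 13 of the 16 translation factors were at least 2-fold lower, against 13.4% of all genes. After thinning to 1331 UMIs a Tmsb4x UMI was found in 57.5% of members and in all ordinary barcodes.

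Nuclear long non-coding RNAs went the other way. Of 5 genes past the filter (11 listed), 4 were at least 2-fold higher and none lower, with a median log2 ratio of 1.28. Malat1, already a marker of the group, is among these 4 and gave 322 of the list's summed 338 per 10000 in members. Kcnq1ot1, an imprinted nuclear RNA, had a ratio of 3.11 (2.19 to 4.43), Xist, which coats the inactive X chromosome, 2.54 (2.10 to 3.08), Pvt1 2.43 (1.67 to 3.55) and Neat1, the scaffold of paraspeckles, 1.34 (0.973 to 1.83). Non-coding genes that overlap ribosomal RNA sequence gave no common direction: Gm26917 had a ratio of 3.82 (3.16 to 4.63), while Gm42418 stood at 161 per 10000 against 264. Gm42418 made up 31.7% of the free RNA.

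Markers of naive T cells were split. Of 14 genes, all past the filter, 6 were at least 2-fold higher and 2 at least 2-fold lower, with a median log2 ratio of 0.63, or 7 and 1 with all UMIs as the scale and its 41.2% and 13.4%. Satb1, a chromatin organizer of T cells, stood at 29.7 against 7.01 per 10000 (ratio 4.23, 3.79 to 4.73). Foxp1 (chr6:98925342-99522746), a factor that keeps naive T cells quiescent, stood at 44 against 11.6 (ratio 3.79, 3.47 to 4.14). Bach2, a repressor of effector differentiation, stood at 25.7 against 7.06 (ratio 3.64, 3.25 to 4.08) and Lef1 at 28.4 against 11.5 (ratio 2.47, 2.24 to 2.72). In contrast, Tcf7 had a ratio of 0.95 (0.826 to 1.09), Ccr7, the lymph node homing receptor, one of 0.513 (0.436 to 0.601), Klf2 one of 0.467 (0.411 to 0.529) and Igfbp4 was 4.84-fold lower (3.76 to 6.32). Naive markers of 1 list thus stood on both sides of the median of all genes.

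Memory markers were lower in the members. Of 17 genes, 14 passed the filter, 10 were at least 2-fold lower and none higher (median log2 ratio -2.61). S100a4 had 9 UMIs in 4 members and 325 in 38 ordinary CD4 T barcodes, 15.4-fold lower (7.99 to 33.9), and S100a6 was 14.7-fold lower (8.99 to 26.0). Cd44, the hyaluronan receptor raised on memory cells, had a ratio of 0.822 (0.583 to 1.14), and Maf one of 0.963 (0.579 to 1.56). Cytotoxic genes summed to 1.15 per 10000 in members (35 UMIs, 16 of them Ccl5) against 16.1 in ordinary CD4 T barcodes (1146 UMIs, 964 of them Ccl5). Gzma, Gzmb and Gzmk were at 0 in the members, which allows up to 0.0989 per 10000 for each. Regulatory T cell genes summed to 3.36 against 7.85 per 10000. Ikzf2, the most abundant of them, had 57 and 99 UMIs and a ratio of 1.35 (0.959 to 1.89), and Foxp3 had 1 UMI in 1 member and 28 UMIs in 14 ordinary barcodes. Proliferation genes summed to 1.95 against 5.90 per 10000, most of it Tubb5 with 45 of 59 UMIs in members and 350 of 421 in ordinary barcodes. Mki67 was at 0 in the members, which allows up to 0.0989 per 10000, but not in ordinary barcodes. Ordinary CD4 T barcodes include cells with these programs, and how much of each ratio comes from them was not tested.

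Genes of TCR signalling and calcium signalling stood on both sides. Of 20 TCR signalling genes, 7 were at least 2-fold higher and 1 lower (median log2 ratio 0.68), against 26% and 19.6% of all genes. With all UMIs as the scale 11 were higher and 0 lower, against 41.2% and 13.4% of all genes. Themis, needed for thymocyte selection, had a ratio of 3.54 (3.09 to 4.04), Cblb, a ubiquitin ligase that restrains activation, 2.67 (2.22 to 3.21) and Prkcq, protein kinase C-θ, 2.41 (2.12 to 2.73), whereas Lat, the adaptor of the activated receptor, was 2.10-fold lower (1.74 to 2.56). Among calcium, calmodulin kinase and NFAT genes, 20 of 22 passed the filter, 9 were at least 2-fold higher and 2 lower (median 0.95), or 12 and 1 with all UMIs as the scale and its 41.2% and 13.4%. Besides Camk4, the IP3 receptor gene Itpr2 had a ratio of 3.24 (2.63 to 4), the calcium sensor Stim1 3.05 (2.49 to 3.74) and the calcineurin subunit Ppp3ca 3.01 (2.25 to 4.05). Calm2, which encodes calmodulin, was 2.27-fold lower (1.55 to 3.43). Of 12 sialyltransferases, 7 passed the filter and 5 were at least 2-fold higher (median 1.73), with St8sia4 at 3.86 (2.86 to 5.24), St8sia1 at 3.31 (2.55 to 4.33) and St6gal1 at 2.68 (2.19 to 3.28) beside St8sia6. These are long genes, and their length is set beside that of other genes below.

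The T cell list itself was mixed, with 3 genes at least 2-fold higher, 5 lower and a median log2 ratio of -0.15, which turned to 0.22 with all UMIs as the scale, where 4 were higher and 3 lower. Skap1 (chr11:96464570-96759622), an adaptor of integrin activation, stood at 33.7 against 12 per 10000, while Cd3d was 4.70-fold lower (3.72 to 6). Interferon response genes had 6 of 9 lower (median -1.31) and 4 with all UMIs as the scale, with Ifi27l2a at 11.9-fold lower (7.98 to 18.5). Immediate early and heat shock genes had 7 of 8 lower (median -1.58) and 6 with all UMIs as the scale. Hspa8 was 4.27-fold lower (3.62 to 5.07). Of 9 apoptosis and p53 genes, 2 were higher and 1 lower (median 0.33, near that of all genes): Bcl2, which inhibits apoptosis, had a ratio of 2.78 (2.46 to 3.14), and Bax, which promotes it, was 6.04-fold lower (3.19 to 12.9). Chromatin and splicing regulators had 7 of 24 higher, near the 26% of all genes, and none lower (median 0.74), and with all UMIs as the scale 14 were higher, against 41.2% of all genes. GIMAP GTPases had 3 of 8 lower (median -0.70), and 1 with all UMIs as the scale. Among 3 checkpoint receptors past the filter, Tox had a ratio of 3.41 (2.85 to 4.07), Btla 2.35 (1.70 to 3.25) and Ctla4 was 4.30-fold lower (2.17 to 9.71).

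**Figure D4:**
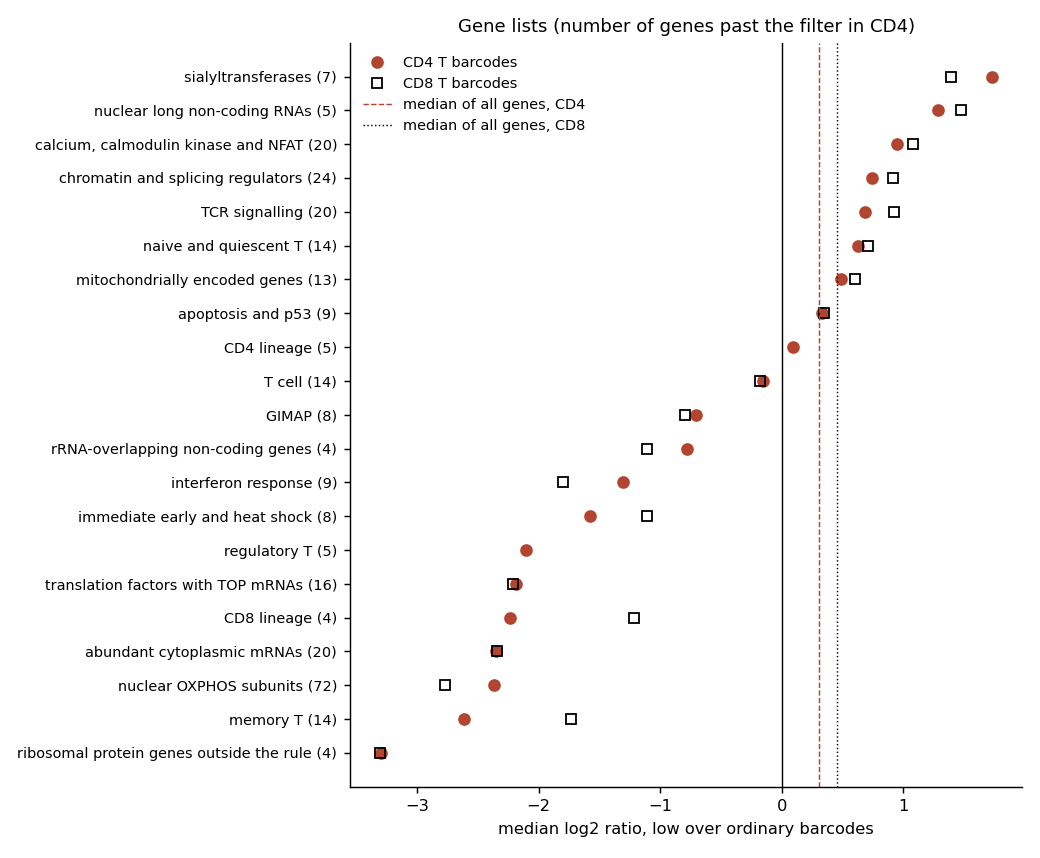
Median log2 ratio of pooled rates (x axis), low over ordinary barcodes, of each gene list with at least 4 genes past the filter, for CD4 T barcodes (filled) and CD8 T barcodes (open squares), with the number of genes in CD4. Dashed and dotted lines mark the medians of all genes at 0.31 in CD4 and 0.46 in CD8; ribosomal protein genes outside the rule lie lowest at -3.30 and sialyltransferases highest at 1.73.

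The ratios of all genes were also set against the length of the gene on the genome. Among 240 genes under 5 kb the median log2 ratio was -1.82, and 75.8% were at least 2-fold lower. It was -0.86 for 999 genes of 5 to 20 kb, 0.18 for 1219 genes of 20 to 50 kb, 0.87 for 915 of 50 to 100 kb and 1.19 for 549 of 100 to 200 kb. Among 246 genes of 200 kb or more it was 1.54, and 83.7% were at least 2-fold higher. Over 4168 genes with a matched position, Spearman's rho with the ratio was 0.76 for the length of the gene, 0.75 for its intronic length and 0.60 for its spliced length. The 12 genes with the highest ratios had a median length of 155 kb (56.5 to 507 for the 11 matched) and the 12 lowest one of 7.50 kb (0.936 to 20.9), against 37.9 kb for all. These genes are the ends of the same ratios and are no separate check of the relation with length. Some of the highest, such as Anks1 and Fam126a, passed the filter only through their level in the members. Likewise, some of the lowest, such as S100a13 and Lgals1, passed it only through their level in ordinary CD4 T barcodes.

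**Figure D5:**
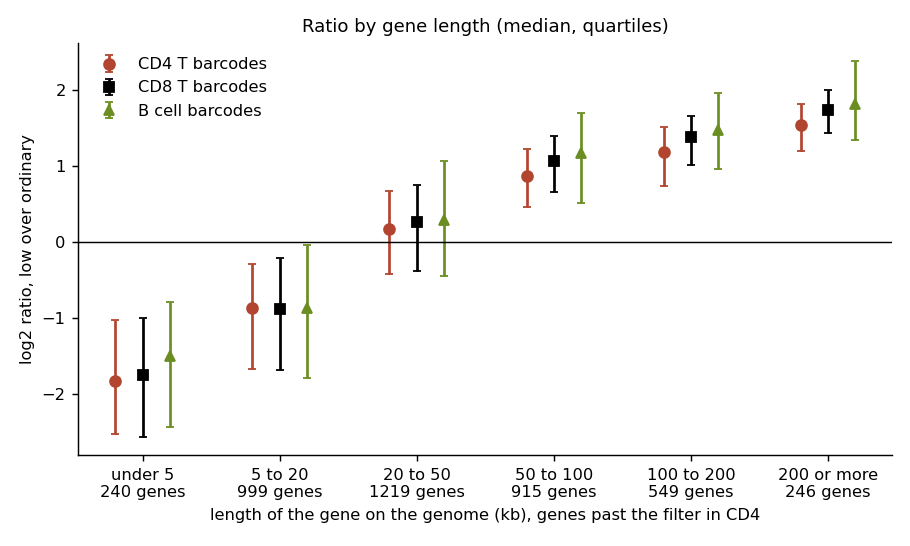
Log2 ratio of pooled rates, low over ordinary barcodes (y axis; points are medians over genes and bars the quartiles), by the length of the gene on the genome (x axis, kb) for CD4 T, CD8 T and B cell barcodes, with the number of genes in CD4. The CD4 median climbs in every step from -1.82 under 5 kb to 1.54 at 200 kb or more, and the other types show the same order.

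Of the lists, 5 were split by gene length at 50 kb, and the longer genes had the higher median in each. The 7 naive markers of 50 kb or more had a median log2 ratio of 1.31 with 6 at least 2-fold higher, and the 7 shorter ones had -0.07 with 2 lower. Of the calcium list, 15 long genes had a median of 1.07 with 9 higher, and 5 shorter genes, with Calm2 among them, had -0.50. Of the T cell list, 5 long genes had 1.01 and 9 shorter ones -1.05. The 2 long memory markers had -0.36 and the 12 shorter ones -3.00. The sialyltransferases were not split. Their 7 genes past the filter had a median length of 136 kb. Among all genes of 100 to 200 kb the median log2 ratio was 1.19, and 63.6% were at least 2-fold higher. The program named by a list and the length of its genes were thus not independent, and their parts in the ratios were not told apart.

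In single barcodes this appeared as a share of UMIs on long genes. Members spent 17.5% to 42.2% of their UMIs outside ribosomal protein genes on genes of 100 kb or more, with a median of 30.5%, and ordinary CD4 T barcodes 6.97% to 27.2% with a median of 14%. Every member exceeded the ordinary median and 88 of 113 the ordinary maximum, a clearer separation than Malat1 or the mitochondrial share gave. Free RNA stood at 13.0%, and low ribosomal CD8 T and B cell barcodes had medians of 31.0% and 31.4%. Dock2 (chr11:34226815-34783905), a guanine nucleotide exchange factor of lymphocyte migration and a gene of this length, stood at 79.9 per 10000 in members and 16.8 in ordinary CD4 T barcodes.

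The level of long genes did not jump at the limit alone. Pooled shares on genes of 100 kb or more were 34.1%, 30.6% and 26.3% in members under 2%, from 2% to under 4% and from 4% to under 10% of ribosomal protein UMIs, and 16.1%, 14.9%, 13.5% and 12.5% in the 4 ordinary bands from 10% upward. Abundant cytoplasmic mRNAs summed to 90.5, 137 and 220 per 10000 in the 3 member bands and to 601 in the band just above the limit. Mitochondrial shares went up over the same 3 bands, at 2.31%, 2.70% and 3.48%, and stood at 1.68% just above the limit. Malat1 was 310, 343 and 299 per 10000 in the member bands, with no order, and 165 just above. Camk4 was 15.9, 14.1 and 12.6 in the member bands and 2.93 just above. Pooled, the 23 ordinary barcodes just above the limit were nearer to the other ordinary bands than to members from 4% upward in these measures. Depth differed as well, with a median of 4147 UMIs just above the limit and 2310 in members from 4% upward. Single members nearest the limit were mixed in Malat1. Those at 8.82%, 9.59% and 9.78% had 155, 204 and 190 per 10000. Those at 9.50% and 9.85% had 402 and 313.

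Members were last set beside low ribosomal CD8 T barcodes, a comparison in which both groups are under 10%. Of 4024 genes, 117 were at least 2-fold higher in the CD4 group (2.91%) and 177 lower (4.4%), and the median log2 ratio was 0.01. The ordinary groups, for comparison, had 95 genes at least 2-fold higher in CD4 (2.4%) and 64 lower (1.61%) of 3965. Of 66 genes 2-fold higher in the low ribosomal CD4 group and past the filter in the ordinary groups, without Cd4, Cd8a and Cd8b1, 61 were higher in ordinary CD4 than ordinary CD8 T barcodes, and of 103 lower genes 91 were lower there. Spearman's rho between both sets of ratios was 0.45 over 3021 genes. Over all 3021 genes, 1979 were higher and 1042 lower in ordinary CD4 than in ordinary CD8 T barcodes.

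Leaving out Cd4, Cd8a and Cd8b1, which the selection set, the 8 genes highest in members over low ribosomal CD8 T barcodes were St8sia6, Nav2, Cd40lg, Itgb3, Itm2a, A630023P12Rik, Tspan32 and Tmem154. Cd40lg (chrX:57212143-57224042) had 46 against 0 UMIs, Nav2 37 against 1, Itgb3, the integrin β3 subunit, 56 against 11 (ratio 8.84, 4.58 to 18.7) and Tspan32, a tetraspanin of blood cells, 100 against 25 (ratio 6.95, 4.45 to 11.2). The 8 lowest, again without these genes, were Gm44174, 1700062C10Rik, Nedd4, Samd3, Rasgef1b, Chst11, Racgap1 and Fam241a. Gm44174, a long non-coding RNA annotated between Cd8b1 and Cd8a on their strand, had 0 against 367 UMIs, and since members were required to have no Cd8a or Cd8b1 UMI it is close to the selection. Samd3 had 2 against 77 UMIs, 22.2-fold lower (5.93 to 186), and Fam241a 14 against 353, 14.5-fold lower (8.54 to 26.8).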

How the data were processed

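The gene expression matrix holds raw UMI counts deposited by the authors for 32285 genes and 300213 barcodes, without a filter on cells. Cell Ranger 4 is named in the file header and GRCm38 in the submitters' processing notes, and the version of the contig software and whether intronic reads were counted are not given in the sources used here. The TCR table holds the authors' counts of UMIs and reads per contig. The UMI limit of 1331 is the 99th percentile of the 3000 largest barcodes divided by 10. The symbol pattern for ribosomal protein genes takes 100 genes, 10 of which are Rps6k kinases.

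Rates are UMIs summed over a group per 10000 UMIs outside these genes. Genes entered a comparison at a mean rate of at least 0.5, and 2-fold marks size, not a test. Named genes are the markers, examples of the lists (most UMIs, or highest and lowest ratio), and the 12 (CD4 against ordinary) or 8 (CD4 against CD8) highest and lowest ratios. Tcf7, Ccr7, Neat1, Cd44, Maf, Tox and the other list genes named between these ends were added after their values were seen. The members and all lists were chosen with earlier results of these data known. Thinning drew UMIs without replacement. Gene lengths were those of the GRCm39 annotation GENCODE vM39, in which 99.8% of the compared genes were found by Ensembl number, and GRCm38 positions from the RefSeq gene table of that build. Python 3.11.15, NumPy 2.4.6, pandas 2.3.3, SciPy 1.17.1 and Scanpy 1.11.5 with Scrublet were used, and the functions were tested on simulated data. Alternatives were other limits, filters, scales and depths. Some members of the gene lists are counted in their list but not reported by name here.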

Additional observations from a re-analysis of the deposited data

Results flagged for a closer look

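A TCR signal outside the clonotype calls was present in 35 members, which carried a productive contig but no clonotype (31.0%, 22.6% to 40.4%), against 9 of 205 ordinary CD4 T barcodes. It drew attention because the clonotype comparisons do not use these contigs, and B cell barcodes, which should lack a TCR, showed such a contig in 1 of 21 and 1 of 62. The 35 members held 39 such contigs, of which 24 rested on 1 UMI and 6 were marked high confidence. The CDR3 of 1 of the 39 was also found in a clonotyped barcode of the library. With 1 library, no group was large enough to look for samples apart from the rest, and no other difference between groups was tested.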

How the results depend on the processing

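Of 82 values under 17 alternative settings for 9 results, 67 stayed within the counting interval or within 1.5 times for counts. Part of the 67 were fixed in advance. Leaving out predicted doublets, or barcodes over 10% mitochondrial UMIs, removed no CD4 T barcode, so that values of CD4 T barcodes alone repeat the main ones. Leaving out barcodes with markers of other cells removed 1 ordinary CD4 T barcode and no member. Raising the ribosomal limit to 15% gave a low share of 42.8%, a clonotype share of 47.8%, Malat1 at 286 and a mitochondrial share of 2.48%, and a limit of 5% gave a mitochondrial share of 2.58%. Barcodes of 2000 to 4000 UMIs only gave a low share of 52.6%. Any productive contig in place of a clonotype gave 69.0% against 99.5%. Malat1 was 296 with at least 2 Cd4 UMIs, 312 per 10000 of all UMIs and 332 after subtraction of 5% free RNA, with ordinary CD4 T barcodes between 118 and 236 over all alternatives. A filter of 2 per 10000 left 536 genes 2-fold apart from ordinary CD4 T barcodes and 49 from low ribosomal CD8 T barcodes, and a filter of 0.25 gave 673 in the latter. Thinning to 2500 UMIs, which left out 46 members, gave a Camk4 UMI in 88.1% and a St8sia6 UMI in 67.2%, against 46.2% and 27.2%. After centring on the median, a setting chosen after seeing the data, the genes 2-fold apart from ordinary CD4 T barcodes turned from mostly higher (1085 against 820) to mostly lower (646 against 1052). The relation with gene length was not varied. No paired analysis was possible because there is 1 sample. Members and ordinary barcodes come from 1 mouse and 1 library, so that spread between animals is unknown, and 70 members have no clonotype, which limits the clonal comparison.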
